A study of Rattus norvegicus with 6 samples.

Results

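The DYRK and CLK kinases, together with Dcaf7, the gene of an adaptor protein of DYRK1A, were examined in rat neonatal cardiomyocytes given an siRNA against DYRK1A. The set comprised 10 genes taken by name from the table of read counts, of 43035 listed features and 32883 annotated genes. These were Dyrk1a, Dyrk1b, Dyrk2, Dyrk3, Dyrk4, Clk1, Clk2, Clk3, Clk4 and Dcaf7. Any unannotated transcript that the authors had added to the table and that overlapped a member on its own strand was kept as a separate row, which gave 7 further rows. The cells were isolated from the hearts of Sprague-Dawley rats, at postnatal day 1 by the labels and over a slightly wider range of ages by the study's methods, and kept in primary culture, where they received either scrambled control siRNA (si-NC) or the siRNA against DYRK1A (si-DYRK1A), and RNA was collected 48 h after transfection. The study holds 3 libraries labelled si-NC, called controls here, and 3 labelled si-DYRK1A, which the labels describe as biological replicates, and neither the labels nor the table headers name a batch. An siRNA lowers an mRNA only in the cells it enters, and such cultures also hold cells other than cardiomyocytes.

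DYRK kinases add phosphate to tyrosine once, on their own activation loop while they are being made, and afterwards act on serine and threonine of other proteins. DYRK1A phosphorylates LIN52, which assembles the DREAM complex that keeps cell cycle genes silent, and it also phosphorylates cyclin D and NFAT proteins, so that it is known as a brake on the cell cycle in cardiomyocytes and other cells. CLK kinases phosphorylate the serine- and arginine-rich (SR) proteins that guide splicing, and DCAF7, also called WDR68, binds the N-terminal region of DYRK1A and DYRK1B and bridges them to other proteins. All 4 CLK kinases and the DYRK kinases belong to the same branch of the kinase tree, and inhibitors of DYRK1A often act on CLK kinases as well.

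Upstream sequence is shown for Clk1 and Dcaf7, which were called higher in the si-DYRK1A-labelled libraries, and for Clk2 and Clk4, which were not called. The groups of Clk2 did not overlap, as in 31.5% of all features tested, and Clk4 is the nearest relative of Clk1. Dyrk1b, whose groups did not overlap either, is not shown. Each line gives the 250 bases before the RefSeq start site on the gene's own strand, in build GRCr8. Capitals mark the letters TGACG, the core of the cyclic AMP response element, and CCAAT, each on either strand, so that CGTCA and ATTGG are capitalized too.
Clk1 (chr9:67453181-67453430, minus strand): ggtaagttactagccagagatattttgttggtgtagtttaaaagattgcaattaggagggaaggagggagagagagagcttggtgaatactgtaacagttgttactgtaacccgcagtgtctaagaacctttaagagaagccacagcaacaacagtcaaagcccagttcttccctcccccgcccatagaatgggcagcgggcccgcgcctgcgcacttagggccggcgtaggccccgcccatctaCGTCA
Clk4 (chr10:36025490-36025739, plus strand): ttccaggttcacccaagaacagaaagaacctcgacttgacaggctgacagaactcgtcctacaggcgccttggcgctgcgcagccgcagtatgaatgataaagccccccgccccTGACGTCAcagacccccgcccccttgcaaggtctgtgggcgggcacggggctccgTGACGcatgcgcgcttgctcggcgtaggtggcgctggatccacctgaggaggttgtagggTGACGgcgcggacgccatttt
Clk2 (chr2:176868173-176868422, plus strand): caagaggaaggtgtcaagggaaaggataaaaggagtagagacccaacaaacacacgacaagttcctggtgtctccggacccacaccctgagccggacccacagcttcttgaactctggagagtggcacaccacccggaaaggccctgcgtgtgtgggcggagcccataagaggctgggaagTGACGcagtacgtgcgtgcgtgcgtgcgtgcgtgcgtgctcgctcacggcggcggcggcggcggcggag
Dcaf7 (chr10:91473650-91473899, plus strand): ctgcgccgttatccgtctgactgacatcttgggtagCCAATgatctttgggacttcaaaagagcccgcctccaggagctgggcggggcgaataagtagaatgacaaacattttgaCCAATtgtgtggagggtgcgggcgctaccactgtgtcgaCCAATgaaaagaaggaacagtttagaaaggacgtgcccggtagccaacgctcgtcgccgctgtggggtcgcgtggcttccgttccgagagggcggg

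RefSeq promoter windows were found for 8 of the 10 genes, with 2 windows each for Dyrk1b and Clk4, 10 windows in all, and none for Dyrk1a and Dyrk2. For Clk4 the window that holds TGACG is printed, a choice made after the matches were seen. TGACG was found in 3 of the 10 windows, those of Clk1, Clk2 and Clk4, against 18.2% of all 33469 RefSeq windows of the same length. In Clk1 it ended at the base before the start site, and in Clk2 it began 69 bases before it. The Clk4 window held it in 4 overlapping or separate places, and those that began 136 and 133 bases before the start site form the full palindrome TGACGTCA, which 1.59% of all windows hold. CCAAT was found in 4 windows, against 34.0% of all windows, and the Dcaf7 window held it 3 times. Of the other motifs searched on both strands, GGGCGG was in 6 windows (30.5% of all), TGCGCA in 2, those of Clk1 and Clk4 (6.14% of all), CACGTG in 1 (5.59% of all) and TATAAA in 0 (12.9% of all). TTTGAA, the element through which DREAM binds cell cycle genes, was in 1 window, that of Dcaf7 (16.2% of all). These matches describe letters and say nothing about binding.

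The libraries held 10325074 to 11921772 counts, and the counts of a gene are whole reads without normalization. Counts were scaled by the TMM factors of edgeR to counts per 1000000 (CPM), and differences were tested by quasi-likelihood in edgeR for the 15513 features with enough counts, with p-values adjusted by the Benjamini-Hochberg method and a threshold of 0.05. The test called 2360 features (15.2% of those tested), of which 1245 were higher (8.03%) and 1115 lower (7.19%), and 4245 features had an unadjusted p below that threshold. Markers of cell types are given as the summed CPM over a list, transcripts that cover only that gene included. Endothelial markers (4 of 5 matched) ranged from 126 to 141 in the controls and from 97.8 to 109 in the si-DYRK1A-labelled libraries, with 2 of 4 lower (Cdh5 and Tek). Cardiomyocyte markers (9 of 10 matched) ranged from 18587 to 19293 and from 21770 to 22760, with 3 of 4 tested higher (Actc1, Actn2 and Nppa). Most of that sum was Actc1 (9976 ± 92.5 and 10880 ± 192 CPM, SD, n = 3) and Nppa (7557 ± 371 and 9782 ± 475 CPM, SD, n = 3). Tnnt2 went the other way without passing the test (log2 fold change -0.14, adjusted p = 0.595, edgeR). Fibroblast markers (7 of 8 matched) ranged from 21536 to 26248 and from 20373 to 21114, with 2 of 6 tested on their gene rows higher (Lum and Postn). Col1a1, which made up most of that sum, went the other way without passing the test (14341 ± 1917 and 11113 ± 196 CPM, SD, n = 3, log2 fold change -0.37, adjusted p = 0.0869, edgeR), and with covering transcripts summed Dcn was higher as well (log2 fold change 0.44, adjusted p = 0.0397, edgeR). Smooth muscle markers (4 of 4 matched) ranged from 556 to 563 and from 545 to 569, macrophage markers (6 of 6 matched) from 121 to 131 and from 112 to 124, and 0 of 6 tested genes of both lists passed the edgeR test, with 3 at an unadjusted p below 0.05. Nearly all of the smooth muscle sum was Cnn1 (556 ± 3.31 and 554 ± 12.5 CPM, SD, n = 3). The gene rows of Myh6, Myh7, Tnni3 and Myl2, which define cardiomyocytes, were at 0 in every library, as were those of Pdgfra, Myh11, Acta2 and Cd68. All of these overlap an unannotated transcript on their strand by at least 1 base. For Myl2, Myh11, Acta2 and Cd68 a transcript covers at least 50% of the gene and no other gene. With such transcripts summed, Myl2 could be tested and was not called (log2 fold change -0.04, adjusted p = 0.915, edgeR). Myh11, Acta2 and Cd68 still had too few counts for the test. For Myh6, Myh7, Tnni3 and Pdgfra how much of the gene is covered is not given. The part of these shifts in the family's values was not tested, and in bulk RNA fewer cells of a type and less RNA per cell cannot be told apart.

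The targeted gene came first, as a check of the labels. The annotated row of Dyrk1a (ENSRNOG00000001662, Rnor_6.0 chromosome 11, 34865532 to 34956536, plus strand) was nearly empty, with 3, 0 and 1 counts in the controls and 2, 1 and 0 in the si-DYRK1A-labelled libraries. Nearly all counts at the locus, 99.87%, lay on an unannotated transcript, which runs from 34840290 to 34959417 on the same strand. That transcript starts 25242 bases before the gene and ends 2881 bases after it, has a spliced length of 7344 bases against 2838 for the annotated gene, and overlaps no other annotated gene. It had 777, 919 and 968 counts in the controls and 971, 851 and 944 in the si-DYRK1A-labelled libraries. After scaling these were 74.5, 77.7 and 80.9 CPM against 85.4, 80.1 and 81.7 CPM, so that the groups overlapped and the highest value was in a si-DYRK1A-labelled library. The log2 fold change was 0.08 (SE 0.0575, 95% interval -0.04 to 0.20, adjusted p = 0.374, edgeR), and p was 0.2 by an exact permutation test (two-sided), in which 3 libraries against 3 others cannot go below 0.1. In percent, the difference was 6.0, with an interval from -2.43 to 15.2. The counts at this locus were thus no lower in the si-DYRK1A-labelled libraries, and the 95% interval of this fit reached down to a decrease of 2.43%. Whether the counts of the transcript come from the bases of the annotated mRNA is not known, and the site of the siRNA was not used here, so these counts do not check the labels, on which every direction below rests.

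The same split between a near-empty gene row and a full transcript row was seen in most of the family. Of the 10 gene rows, 5 were at 0 in all 6 libraries (Dyrk1b, Dyrk2, Clk1, Clk2 and Clk3), and 8 had under 10 counts in every library. A count of 0 allows up to 3 counts, or 0.291 CPM in the shallowest library. All 7 genes with an unannotated transcript on their strand were among these 8, the last being Dyrk4, which had none. Over all protein-coding genes, 77.2% of the 6885 that such a transcript covered by at least 50% had under 10 counts in every library, against 46.2% of the 14871 that were not covered. A 0 on these rows thus does not show that the mRNA was absent. The domain entry of the authors for each of the 7 transcripts lists a protein kinase domain.

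**Figure D1:**
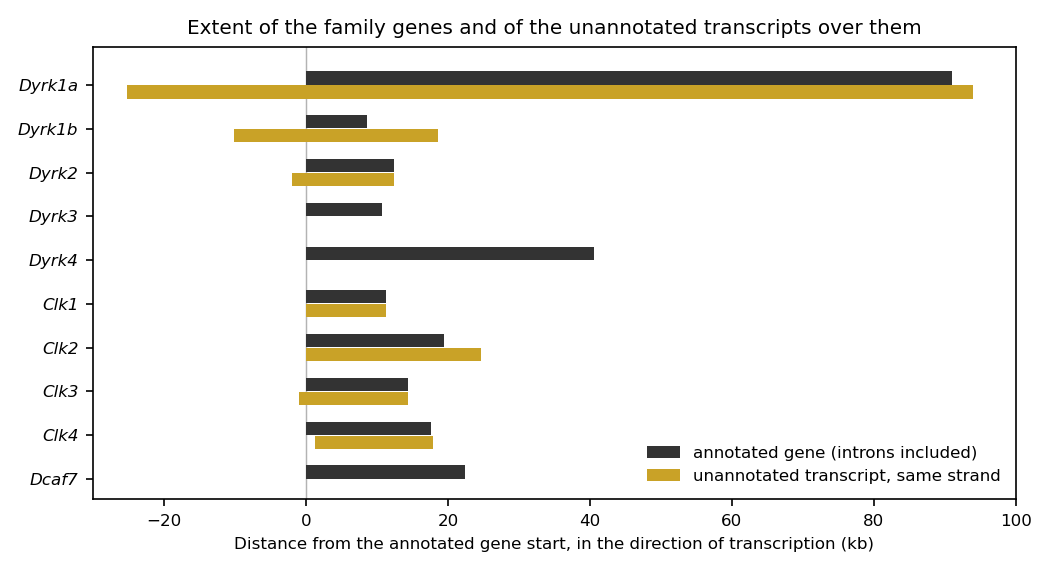
Extent of the 10 family genes (dark bars) and of the unannotated transcripts on the same strand (yellow bars), as distance in kb from the annotated gene start in the direction of transcription, introns included. The transcript over Dyrk1a starts 25242 bases before the gene, that over Clk1 has the ends of the gene, and Dyrk3, Dyrk4 and Dcaf7 have none.

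The transcripts differ in how closely they match a gene. Those over Dyrk1a, Dyrk2, Clk1 and Clk3 overlap no other annotated gene. The transcript over Clk1 (chromosome 9, 65296778 to 65307995, minus strand) has the same ends as the gene (ENSRNOG00000025768) and a spliced length of 3033 bases against 1774. The transcript over Dyrk2 (chromosome 7, 61786309 to 61800749, minus strand) covers the whole of the gene (ENSRNOG00000007821), and that over Clk3 (chromosome 8, 62528259 to 62543538, minus strand) covers 99.8% of its gene (ENSRNOG00000030126). The spans of the other 3 transcripts, introns included, also overlap other annotated entries on the same strand. The transcript over Dyrk1b (chromosome 1, 85102146 to 85130875, plus strand, gene ENSRNOG00000019254) also overlaps Fbl, which encodes the nucleolar protein fibrillarin, and has a spliced length of 15489 bases. The transcript over Clk2 (chromosome 2, 188476820 to 188501444, plus strand, gene ENSRNOG00000020500) also overlaps Fam189b and Mir3541, and its domain entry lists a SCAMP family domain beside the kinase domain. The transcript over Clk4 (chromosome 10, 36716784 to 36733476, plus strand, gene ENSRNOG00000003714) covers 93.1% of Clk4, ends 343 bases after it and overlaps an entry named 7SK. Values of these 3 rows may hold reads of the other entries as well as of the kinase, and whether they do was not tested.

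Of the 10 gene rows, 2 had enough counts to be tested (Dyrk3 and Dcaf7), and so had all 7 transcripts. Of these 9 rows, 2 were called, Dcaf7 and the Clk1 transcript, while 15.2% of all features tested were called in either direction. Both were higher in the si-DYRK1A-labelled libraries, against 8.03% of all features. Among the transcripts 1 of 7 was called, against 11.7% of all unannotated transcripts tested. All libraries of the groups were apart for 4 of the 9 rows (Dcaf7 and the transcripts over Dyrk1b, Clk1 and Clk2), against 31.5% of all features. The log2 fold change was positive in 8 of the 9 rows, with a median of 0.17, where the median of all features was 0.00. With so few rows, 2 calls of 9 lie near the share of calls in the whole table.

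**Figure D2:**
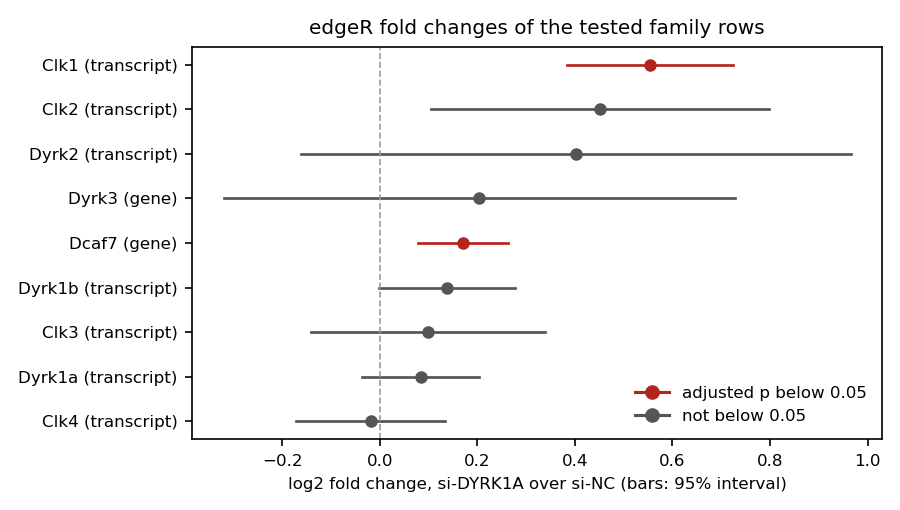
Log2 fold change of si-DYRK1A over si-NC for the 9 tested family rows (points), with 95% intervals (bars) from edgeR and 3 libraries per group. Red marks an adjusted p below 0.05. The transcript over Clk1 lies at 0.55 and Dcaf7 at 0.17, and the interval of Clk4 lies on both sides of 0.

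Clk1, which encodes a nuclear kinase of SR proteins, had the largest log2 fold change of the family with all 6 libraries, although that of Dyrk2, an imprecise value, was larger without si-NC replicate 1, si-NC replicate 2 or si-DYRK1A replicate 2, and that of Clk2 without si-NC replicate 1. Its transcript had 358, 427 and 509 counts in the controls and 593, 616 and 648 in the si-DYRK1A-labelled libraries. Scaled for depth, the values were 34.3, 36.1 and 42.6 CPM against 52.2, 58.0 and 56.1 CPM. Every si-DYRK1A-labelled library thus lay above every control, and the spread among the controls (37.7 ± 4.33 CPM, SD, n = 3) was below the gap between the group means (55.4 ± 2.98 CPM, SD, n = 3). The log2 fold change was 0.55 (SE 0.0818, 95% interval 0.38 to 0.72, adjusted p = 5.49e-05, edgeR), a 1.47-fold higher level with an interval from 1.31 to 1.65. Among all features tested, 1.78% had a smaller p. Clk1 mRNA is known to occur with retained introns and a skipped exon as well as in its full coding form, and counts over a whole transcript do not tell these forms apart.

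Clk4, whose protein is the closest relative of CLK1, had 559, 556 and 569 counts in the controls and 544, 541 and 548 in the si-DYRK1A-labelled libraries. The corresponding values were 53.6, 47.0 and 47.6 CPM and 47.8, 50.9 and 47.4 CPM, and the groups overlapped throughout. This gave a log2 fold change of -0.02 (SE 0.0732, 95% interval -0.17 to 0.13, adjusted p = 0.908, edgeR), so that a change of more than 11.2% downwards or 9.70% upwards lies outside the interval. The annotated row of Clk4 had 0, 0 and 2 counts in the controls and 0 in the others. The gene LOC497899 on the opposite strand overlaps the Clk4 gene, and the use of strand in counting is not given in the sources used here. Reads of both could thus not be told apart where the genes overlap.

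Clk2, a kinase of SR proteins that insulin induces in liver, had few counts, 95, 69 and 85 in the controls and 109, 109 and 118 in the si-DYRK1A-labelled libraries. The values were 9.11, 5.84 and 7.11 CPM against 9.59, 10.3 and 10.2 CPM, without overlap, although the highest control came within 0.5 CPM of the lowest library of the other group. The log2 fold change of 0.45 (SE 0.167, 95% interval 0.10 to 0.80) did not pass the test (adjusted p = 0.0749, edgeR). Without si-NC replicate 1, the library with the highest si-NC value, it was 0.63 with an adjusted p of 0.0220 (edgeR). Without si-NC replicate 2, the lowest of the controls, it was 0.31 with an adjusted p of 0.267 (edgeR). With all libraries, limma gave 0.22 on log2(FPKM + 1) and 0.42 on log2(FPKM + 0.1). The row lay at 0.654 to 1.14 FPKM, so that an added 1 shrinks its fold change. The row also overlaps Fam189b.

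For Clk3, the remaining CLK kinase, the transcript had 153, 167 and 153 counts in the controls and 160, 154 and 184 in the si-DYRK1A-labelled libraries. These were 14.7, 14.1 and 12.8 CPM and 14.1, 14.5 and 15.9 CPM, and the groups overlapped. Their log2 fold change was 0.10 (SE 0.115, 95% interval -0.14 to 0.34, adjusted p = 0.635, edgeR), and it was 0.037 without si-NC replicate 3 and 0.044 without si-DYRK1A replicate 3.

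**Figure D3:**
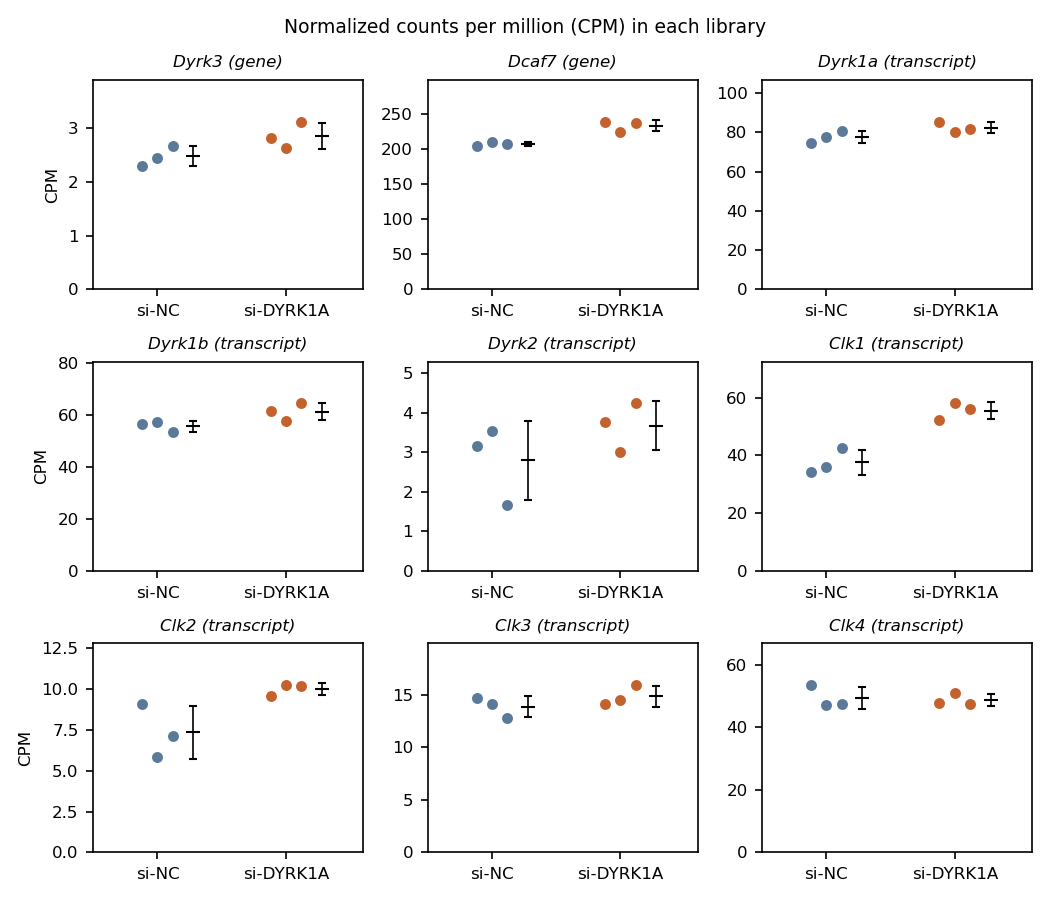
TMM-scaled counts (CPM, linear axes from 0) of the 9 tested family rows in each library; points are libraries, and the bars beside them give the mean ± SD of 3 libraries. The groups are apart for Dcaf7 and the transcripts over Clk1, Clk2 and Dyrk1b and overlap in the other 5 panels.

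Within a library, the count ratio of a pair of loci needs no scaling between libraries. The pairs below were chosen after their values had been seen and are given as a description, without a test. The Clk1 to Clk4 ratio was 0.640, 0.768 and 0.895 in the controls and 1.09, 1.14 and 1.18 in the si-DYRK1A-labelled libraries. Clk4 thus had more counts than Clk1 in all 3 controls and fewer in all 3 si-DYRK1A-labelled libraries. These are raw counts of rows of unlike length (3033 bases for Clk1, 7896 for Clk4), so they do not order the levels of the genes. The Clk2 to Clk3 ratio was 0.621, 0.413 and 0.556 against 0.681, 0.708 and 0.641, also without overlap, but with a gap that was small beside the spread of the controls. Per length, the 4 CLK transcripts summed to 22.3 ± 1.02 FPKM (SD, n = 3) in the controls and 28.4 ± 1.28 FPKM (SD, n = 3) in the si-DYRK1A-labelled libraries, FPKM being counts that the authors scaled by the listed length of a row and by the depth of the library. Clk1 made up 55.2% ± 4.33 of this sum (SD, n = 3) in the controls and 63.6% ± 0.615 (SD, n = 3) in the others. The share of Clk4 was 27.9% and 21.5%, that of Clk3 13.2% and 11.0%, and that of Clk2 3.68% and 3.92%. By the listed lengths of these rows, Clk1 thus stood above Clk4 in both groups. The annotated genes have spliced lengths of 1774 bases (Clk1) and 1389 bases (Clk4), so this order rests on the lengths used.

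**Figure D4:**
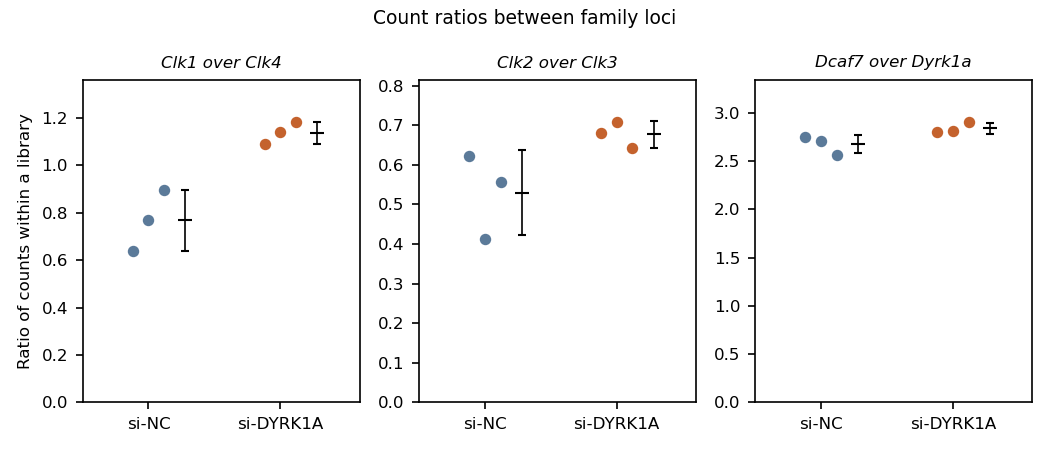
Ratios of raw counts of Clk1 over Clk4, Clk2 over Clk3 and Dcaf7 over Dyrk1a in each library (points), with the mean ± SD of 3 libraries per group beside them; the axes start at 0. The Clk1 over Clk4 ratio, not scaled for the lengths of the rows, lies below 1 in all controls and above 1 in all si-DYRK1A-labelled libraries.

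Dcaf7 (ENSRNOG00000042245, chromosome 10, 94231585 to 94254046, plus strand) was the most highly counted member and the only one called on its own gene row. It had 2138, 2489 and 2484 counts in the controls and 2720, 2388 and 2741 in the si-DYRK1A-labelled libraries. Scaled for depth, the controls lay at 205.0, 210.5 and 207.7 CPM and the si-DYRK1A-labelled libraries at 239.2, 224.9 and 237.2 CPM. The groups did not overlap, and the controls lay within a narrow band (207.7 ± 2.74 CPM, SD, n = 3, against 233.8 ± 7.77 CPM, SD, n = 3). Dcaf7 thus had a log2 fold change of 0.17 (SE 0.0448, 95% interval 0.08 to 0.26, adjusted p = 0.0116, edgeR), a 1.13-fold higher level with an interval from 1.06 to 1.20. The call was lost without si-NC replicate 1 (adjusted p = 0.0614, edgeR), and likewise when si-DYRK1A replicate 1 (0.0561) or replicate 3 (0.0601) was left out. Its count ratio to the Dyrk1a transcript was 2.75, 2.71 and 2.57 in the controls and 2.80, 2.81 and 2.90 in the si-DYRK1A-labelled libraries. The ratio differed little beside its size, and its groups were apart by less than 0.1.

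Dyrk1b encodes the closest relative of DYRK1A, a kinase known for holding cells in quiescence and for its expression in muscle. Its transcript had 587, 679 and 637 counts in the controls and 699, 613 and 744 in the si-DYRK1A-labelled libraries. The scaled values were 56.3, 57.4 and 53.3 CPM against 61.5, 57.7 and 64.4 CPM, apart by less than 0.5 CPM. On the FPKM scale of the authors the groups overlapped slightly, with 3.6957 in si-NC replicate 2 and 3.6954 in si-DYRK1A replicate 2. By edgeR, the log2 fold change was 0.14 (SE 0.0670, 95% interval -0.00 to 0.28, adjusted p = 0.189). In percent, the interval ran from -0.108 to 21.2. The row overlaps Fbl as well.

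Dyrk2 encodes a kinase of p53 that also serves as a scaffold of a ubiquitin ligase. Its transcript had 33, 42 and 20 counts in the controls and 43, 32 and 49 in the si-DYRK1A-labelled libraries, and the groups overlapped. The log2 fold change was 0.40 (SE 0.271, 95% interval -0.16 to 0.97, adjusted p = 0.366, edgeR), an interval that holds 0 as well as an increase of 95.2%. The value was 0.12 without si-NC replicate 3 and 0.62 without si-NC replicate 2. Dyrk3 (ENSRNOG00000004870, chromosome 13, 47906231 to 47916877, minus strand), a kinase that dissolves stress granules and other condensates, had 24, 29 and 32 counts in the controls and 32, 28 and 36 in the others. Its values of 2.30, 2.45 and 2.68 CPM and 2.81, 2.64 and 3.12 CPM overlapped, and the log2 fold change was 0.20 (SE 0.252, 95% interval -0.32 to 0.73, adjusted p = 0.660, edgeR). Dyrk4 (ENSRNOG00000053178, chromosome 4, 159427340 to 159467955, minus strand), best known from testis, had 1, 1 and 9 counts in the controls and 1, 3 and 0 in the si-DYRK1A-labelled libraries. That is 11 counts against 4, with 9 of the 11 in si-NC replicate 3, and the row was not tested.

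Levels can be ordered between genes only per length, on the FPKM scale. In the controls Dcaf7 stood highest (36.5 to 37.7 FPKM), followed by the Clk1 transcript (11.2 to 13.9), the Dyrk1a transcript (10.0 to 11.0) and the Clk4 transcript (5.94 to 6.72). The Dyrk1b transcript (3.42 to 3.70) and the Clk3 transcript (2.70 to 3.09) came next, and then Dyrk3 (0.915 to 1.07), the Clk2 transcript (0.654 to 1.01) and the Dyrk2 transcript (0.228 to 0.485). Dyrk3 and Clk2 overlapped in both groups, and all other neighbours in this order were apart in the controls, with 0.3 FPKM or less between the nearest libraries of Clk1 and Dyrk1a. In the si-DYRK1A-labelled libraries the order of the 9 rows by mean was kept, and Clk1 (17.0 to 19.0 FPKM) stood further from Dyrk1a (10.8 to 11.5 FPKM). The 5 DYRK loci summed to 15.6 ± 0.523 FPKM (SD, n = 3) and 16.7 ± 0.533 FPKM (SD, n = 3), of which Dyrk1a held 67.3% ± 0.772 and 66.5% ± 1.26 (SD, n = 3) and Dyrk1b 22.9% and 23.4%. Lengths are those the authors list for each row, and they may include bases of other annotated entries for Dyrk1b, Clk2 and Clk4. The order rests on these lengths, which for the transcripts over Clk1, Clk4 and Dyrk1a exceed those of the annotated genes.

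**Figure D5:**
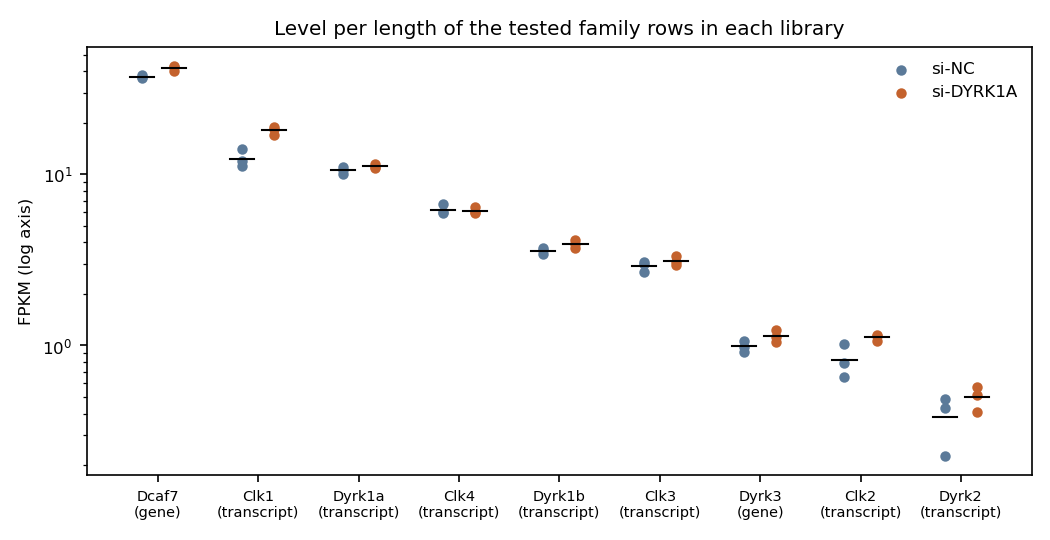
FPKM on a log axis for the 9 tested family rows in each library (points; black lines are means of 3 libraries), ordered by the si-NC mean. Dcaf7 lies highest, at 36.5 to 42.6 FPKM, and the transcript over Dyrk2 lowest.

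The annotated genes whose level followed the Dyrk1a transcript most closely over the 6 libraries were named by Pearson correlation of log2 CPM among 9682 annotated genes tested. They were Smndc1 (r = 0.994), which encodes a splicing factor related to SMN, Nsrp1 (r = 0.990), which encodes a splicing regulator of nuclear speckles, and Cep57 (r = 0.989), which encodes a centrosomal protein. In all, 37 genes had an r above 0.95. The 6 libraries share their groups, and with so few of them high values arise among many genes, so these values are a description.

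Genes around the family were read from 4 lists with 53 symbols, of which 52 matched and 24 were tested on their gene rows, with 0 higher and 2 lower by the edgeR test, against 15.2% of all features called in either direction and 7.19% called lower. Of the related kinases (HIPK, SRPK and PRP4 kinases), 8 matched, and all 8 overlap an unannotated transcript on their strand, in part or in full. Of these, 3 were tested, with a median log2 fold change of 0.10 against 0.00 for all features. With covering transcripts summed, 7 were tested, with a median of -0.06. On the gene rows, 1 was lower. This was Hipk4, a homeodomain-interacting kinase, with 8.89 ± 0.513 CPM (SD, n = 3) in the controls and 5.89 ± 1.53 CPM (SD, n = 3) in the si-DYRK1A-labelled libraries (log2 fold change -0.59, SE 0.185, adjusted p = 0.0322, edgeR). The call was lost in 7 of 20 alternatives, among them those without si-NC replicate 1 (adjusted p = 0.0818), without si-NC replicate 2 (0.0874) and without si-DYRK1A replicate 1 (0.165), where the log2 fold change was -0.39 (edgeR). Of the SR proteins, which CLK kinases phosphorylate, 13 matched, 5 were tested with a median of 0.04, and 1 was lower. Srsf9 lay at 103.0 ± 11.1 CPM (SD, n = 3) in the controls and 88.9 ± 3.44 CPM (SD, n = 3) in the others (log2 fold change -0.21, SE 0.0678, adjusted p = 0.0426, edgeR). Its call was lost in 11 of 20 alternatives, with adjusted p-values of 0.0578 to 0.174 (edgeR) when any library other than si-NC replicate 2 was left out.

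Of the partners of DYRK1A and DCAF7 and the subunits of their ubiquitin ligases, 12 matched, 5 were tested with a median of -0.01, and 0 passed the edgeR test. At an unadjusted p below 0.05 there was 1, and DESeq2 called 0 genes of the 4 lists. This was Rnf169, a ubiquitin ligase of DNA repair that binds DYRK1A, with a log2 fold change of 0.29 and an adjusted p of 0.0653 (edgeR). It was named after its values were seen. Of the DYRK substrates, 19 of 20 matched, 11 were tested with a median of -0.08, and 0 passed the edgeR test, with 1 at an unadjusted p below 0.05. When the counts of each gene were summed with those of the transcripts that cover it and no other gene, a step added after the data had been seen, 43 members of the 4 lists could be tested, and 1 was higher and 3 lower, against 15.2% of all features called in that fit, so that the lists held no larger share of calls than the whole table. The added calls were Fam53c, which encodes a protein that binds DYRK1A (log2 fold change -0.21, SE 0.0571, adjusted p = 0.0165, edgeR), and Cdkn1b, which encodes the cell cycle inhibitor p27 that DYRK kinases phosphorylate (log2 fold change 0.34, SE 0.103, adjusted p = 0.0289, edgeR). Both genes have under 10 counts in every library on their own rows, so these values rest on the transcripts. The same sum for the family left the call of Dcaf7 and added Clk1 to the genes called.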

How the data were processed

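RNA-seq libraries of rat neonatal cardiomyocytes (3 si-NC, 3 si-DYRK1A) were grouped by the sample titles. Per the paper's methods, reads were mapped to Rnor_6.0 with HISAT2, whereas the submitters' processing notes list Bowtie 0.12.2 and mm8. How reads were counted, with which annotation release and whether by strand, is not given in the sources used here. Labels and paper differ on the kit (TruSeq and NEBNext) and on the age of the rats. Of the tables the authors deposited, that of raw counts, to which they had added 10152 unannotated transcripts with 17.2% to 17.5% of the counts, was used for the tests. FPKM values deposited by the authors were used for levels per length.

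Counts were tested with edgeR 4.0.16 in R 4.3.3 (TMM, filterByExpr with a minimum count of 10 and a total of 15, robust quasi-likelihood test, two-sided, Benjamini-Hochberg threshold 0.05), on the 15513 of 43035 features that passed the filter, and values are given for the family, the lists, cell type markers and correlated genes. The exact permutation test was used for single values. Members and lists were chosen with earlier results of these data known. The genes named were all members and their unannotated transcripts, up to 3 called members of each list by p, exceptions a sentence needed, and the 3 genes most correlated with the Dyrk1a transcript. Alternatives used DESeq2 1.42.0, limma 3.58.1 and other settings. Libraries of a group differed beyond counting noise (chi-square per degree of freedom 2.49 to 5.87). For si-DYRK1A against si-NC, counts were also simulated (15513 genes, 200 changed, 3 simulations), and edgeR recovered 70.6% of genes changed by 1 and 37.5% of those changed by 0.5 on the log2 scale, and 3.37% of its calls were false. The data held 2360 calls, far more than the 200 genes changed in the simulation. Its shares therefore describe that setting and may not hold for the data. Upstream sequences came from RefSeq (GRCr8), a build other than that of the counts.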

Additional observations from a re-analysis of the deposited data

How the results depend on the processing

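The transcript over Clk1 was called under all 18 alternatives that could give its value, with a log2 fold change of 0.49 to 0.65 and an adjusted p of 6.83e-11 to 0.0496 (edgeR, DESeq2 or limma). That over Dyrk1a stayed between 0.05 and 0.11 and was never called (adjusted p 0.299 to 0.653). Dcaf7 kept its direction in all 18 (0.14 to 0.20), but its call was lost in 6, the 3 single-library omissions given above and limma on log2(FPKM + 1), on log2(FPKM + 0.1) and on log2(FPKM + 1) without a filter (adjusted p 0.0638, 0.0638 and 0.112); the cause was not tested. Gene rows of the family called numbered 1 at first, 2 with gene and transcript summed, 0 under each of the 3 limma settings on FPKM and at an adjusted p below 0.01, and 0 to 1 with a library left out. Transcripts called numbered 1, and 1 to 2 with a library left out. Clk4, at -0.02, was turned to 0.042 without si-NC replicate 1 and to 0.000767 without si-DYRK1A replicate 3, and the log2 fold change lay between -0.055 and 0.042 with a library left out. List genes called numbered 2 at first, 1 with upper-quartile scaling, 1 with limma-voom, 4 without a filter on low counts, 4 with list genes and transcripts summed, 0 with DESeq2, with the 3 limma settings on FPKM and at an adjusted p below 0.01, and 0 to 2 with a library left out. Features called fell from 2360 to 1199, 1180 and 591 under the 3 limma settings on FPKM and to 1307 at an adjusted p below 0.01; leaving out a library gave 1614 to 2210. The transcript over Dyrk2 was above 0.5 FPKM in fewer than the 3 libraries the filter asks for, so it has no value in the limma settings with that filter. Without the filter it was 0.12, on log2(FPKM + 1), where the added 1 shrinks the fold change of so low a row. With a library left out, log2 fold changes of rows not called were 0.10 to 0.18 for Dyrk1b, 0.12 to 0.62 for Dyrk2, 0.14 to 0.26 for Dyrk3, 0.31 to 0.63 for Clk2 and 0.037 to 0.14 for Clk3, and Clk2 was called in 1 case, without si-NC replicate 1 (adjusted p = 0.0220, edgeR). Rows with few counts, such as Dyrk2, Dyrk3 and Dyrk4, carry wide intervals or no test. Between libraries with the same replicate number, the correlations of deviations from the group means were 0.058, -0.026 and -0.004. Those between unlike numbers are not given, so whether the numbers pair the libraries was not tested. With the replicate number as a block, 2269 features, 1 family gene row, 1 transcript and 3 list genes were called.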
